A study of Mus musculus with 2 samples.

Results

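The 7 globin genes Hba-x, Hba-a1, Hba-a2, Hbb-bh1, Hbb-y, Hbb-bs and Hbb-bt were picked by symbol from the 27998 genes of the count tables and followed across 2 stages of the mouse embryo. Inter-limb somites of C57BL/6 wild type embryos of stage E9.5 or E11.5 were dissociated and captured in droplets, where each transcript receives a unique molecular identifier (UMI) that lets PCR copies be counted once. At each stage 3 embryos were pooled into 1 library, with no treatment and no transgene at either stage, so a difference between stages is also a difference between 2 libraries. No test across samples was possible, and barcodes of 1 library are not replicates of a stage. Every interval given here is a 95% interval for counting error only.

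A barcode was kept when it had at least 200 and under 6500 genes and under 15% mitochondrial UMIs, and it was called globin-rich when the 7 genes took at least 10% of its UMIs. Of 9851 barcodes kept at E9.5, 122 were globin-rich, a share of 1.24% (Clopper-Pearson interval 1.03 to 1.48). At E11.5, 135 of 9595 were, a share of 1.41% (1.18 to 1.66), so the intervals of the stages overlapped. The deposited E9.5 library held 149368952 UMIs in 10121 barcodes, and the E11.5 library 136655763 UMIs in 10167. They had 30 barcode sequences in common, none of them globin-rich in both. The globin-rich barcodes had a median of 14734 UMIs and 2465 genes at E9.5. At E11.5 these were 17194 UMIs and 1749 genes. Median mitochondrial UMIs in them were 2.17% and 0.902%.

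Haemoglobin is a tetramer of alpha-type and beta-type globin chains, each holding a haem group, and fills the red blood cell. The first red cells of the mouse, the primitive erythrocytes, arise in the yolk sac, enter the blood while still nucleated and mature there as a cohort. They are known for embryonic chains: the alpha-type chain zeta, encoded by Hba-x, and the beta-type chains of Hbb-bh1 and Hbb-y. Definitive red cells, made later in the foetal liver and then in the bone marrow, use the adult alpha-type genes Hba-a1 and Hba-a2 and the adult beta-type genes Hbb-bs and Hbb-bt. The replacement of embryonic by adult globins, and of one embryonic beta-type gene by another, is called globin switching.

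In GENCODE M21 on GRCm38 the alpha-type genes lie on the plus strand of chromosome 11, in the order of their use. Hba-x spans chr11:32276400-32278116, Hba-a1 chr11:32283511-32284465 and Hba-a2 chr11:32296489-32297298. The beta-type genes lie on the minus strand of chromosome 7, where Hbb-y spans chr7:103851749-103853216, Hbb-bh1 chr7:103841637-103843164, Hbb-bs chr7:103826534-103828096 and Hbb-bt chr7:103812524-103813996. Read along the minus strand, the embryonic genes again come before the adult ones.

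The 250 bases before the RefSeq start of 5 members are shown because these genes, neighbours in their clusters, differed in how their UMIs moved between the stages. They are RefSeq windows on GRCm38.p6, written 5′ to 3′ on the strand of the gene. Of the 7 members 6 had one, and Hbb-bh1 had none. Capitals mark 4 motifs on either strand: CACCC is the core of sites bound by Klf1, CCAAT is a common promoter box, GATAA is the core of a Gata1 site, and TATAA is the core of the TATA box. The windows are chr11:32276350-32276599 for Hba-x, chr11:32283422-32283671 for Hba-a1, chr7:103853208-103853457 for Hbb-y, chr7:103827929-103828178 for Hbb-bs and chr7:103813924-103814173 for Hbb-bt. The longer GENCODE models start upstream of the RefSeq starts, so 200 of the 250 bases lie inside the GENCODE gene of Hba-x, 161 for Hba-a1, 9 for Hbb-y, 168 for Hbb-bs and 73 for Hbb-bt.
Hba-x: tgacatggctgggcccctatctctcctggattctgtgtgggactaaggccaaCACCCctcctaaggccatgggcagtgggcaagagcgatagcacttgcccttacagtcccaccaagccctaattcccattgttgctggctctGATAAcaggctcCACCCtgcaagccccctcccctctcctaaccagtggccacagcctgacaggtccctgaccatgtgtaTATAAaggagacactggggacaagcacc
Hba-a1: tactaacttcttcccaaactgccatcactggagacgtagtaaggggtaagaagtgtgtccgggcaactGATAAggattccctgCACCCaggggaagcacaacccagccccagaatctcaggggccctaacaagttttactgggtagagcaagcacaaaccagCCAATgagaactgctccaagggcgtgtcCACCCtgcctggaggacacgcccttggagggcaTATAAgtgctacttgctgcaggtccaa
Hbb-y: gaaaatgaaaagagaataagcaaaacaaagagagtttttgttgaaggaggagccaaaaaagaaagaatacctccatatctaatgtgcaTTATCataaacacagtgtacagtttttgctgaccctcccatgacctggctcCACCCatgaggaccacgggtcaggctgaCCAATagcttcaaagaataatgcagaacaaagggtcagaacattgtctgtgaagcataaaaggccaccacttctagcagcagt
Hbb-bs: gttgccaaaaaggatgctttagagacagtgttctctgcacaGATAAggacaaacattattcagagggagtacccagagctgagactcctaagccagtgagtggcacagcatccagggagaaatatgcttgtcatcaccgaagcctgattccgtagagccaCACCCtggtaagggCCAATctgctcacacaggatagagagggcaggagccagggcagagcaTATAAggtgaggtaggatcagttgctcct
Hbb-bt: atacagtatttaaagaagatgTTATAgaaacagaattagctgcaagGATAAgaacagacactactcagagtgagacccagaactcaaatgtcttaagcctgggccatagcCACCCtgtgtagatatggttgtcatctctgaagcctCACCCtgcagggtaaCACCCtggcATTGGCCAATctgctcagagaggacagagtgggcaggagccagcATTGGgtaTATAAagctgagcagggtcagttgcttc
All 5 windows held CACCC and GATAA. The match to CACCC nearest the RefSeq start began 95 bases before it in Hba-x, 60 in Hba-a1, 111 in Hbb-y, 90 in Hbb-bs and 89 in Hbb-bt. Hbb-bt had 3 matches to CACCC and 3 to CCAAT, against 1 of each in Hbb-bs, and in Hbb-bt a pair of the CCAAT matches lay side by side, one on each strand. No match to CCAAT was found in the Hba-x window and none to TATAA in the Hbb-y window. Only exact matches were marked, so variants of a motif are not, such as CATAA near the end of the Hbb-y window. Such short motifs are common: of 32851 RefSeq windows of this length, 52.0% held CACCC, 33.9% CCAAT, 22.6% GATAA and 22.8% TATAA. Whether the motifs bear on the globin levels was not tested. The Hba-a2 window shared a run of 247 bases with that of Hba-a1, whereas the longest run shared by Hbb-bs and Hbb-bt was 14 bases.

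In the globin-rich barcodes the 7 genes took 32.0% of all UMIs at the earlier stage and 58.9% at the later one. Within the beta-type family, the share of Hbb-bh1 was lower at E11.5, and those of Hbb-y and of the adult gene Hbb-bt were higher. Within the alpha-type family, Hba-x still led at E11.5 but with a smaller share against Hba-a1 and Hba-a2. In UMIs as counted, the adult genes together did not reach the level of Hbb-y or Hba-x at either stage. Within each adult pair the transcripts share long stretches of sequence, so their totals may be counted too low, as set out below.

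Of the globin UMIs, Hba-x gave 30.8% at E9.5 against 22.8% at E11.5. Hba-a1 gave 7.90% and 7.93%, and Hba-a2 gave 4.03% and 4.18%. The share of Hbb-bh1 was 11.9% at E9.5 and 3.24% at E11.5. That of Hbb-y, already the highest of the 7 at E9.5 with 44.6%, was 56.5% at E11.5. The adult beta-type genes were the lowest at E9.5, Hbb-bs with 0.610% and Hbb-bt with 0.189%, and gave 1.15% and 4.19% at E11.5. These are shares of UMIs that are not adjusted for the length of the transcripts, which ran from 554 to 801 bases. All alpha-type UMIs together were 42.7% of globin UMIs at E9.5 against 34.9% at E11.5, a difference of -7.77 percentage points (Newcombe interval -7.92 to -7.62).

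**Figure D1:**
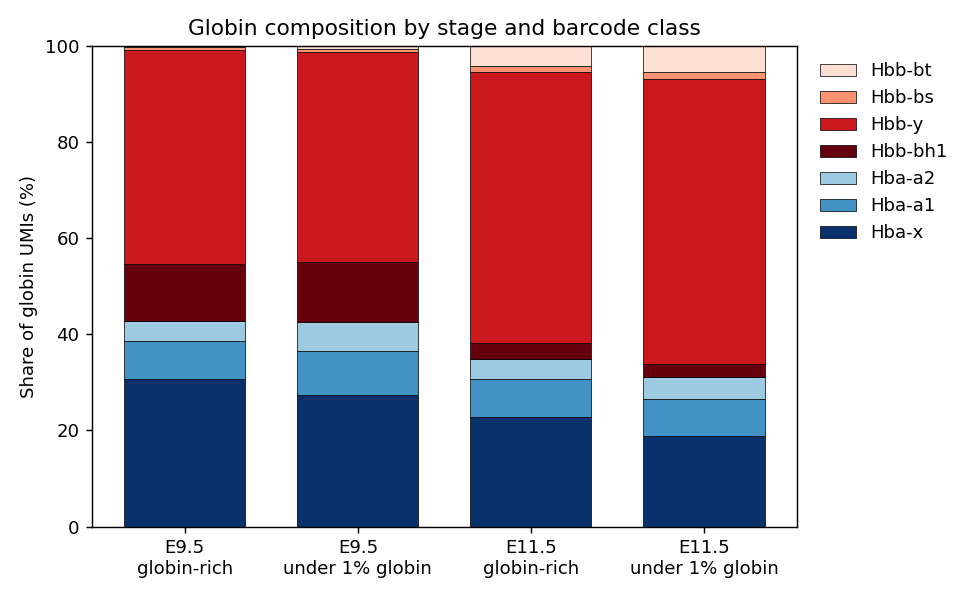
Share of each of the 7 globin genes among globin UMIs (y axis, percent), as stacked bars for globin-rich barcodes and for barcodes under 1% globin UMIs at each stage. In globin-rich barcodes the Hbb-bh1 segment is 11.9% at E9.5 and 3.24% at E11.5, the Hbb-bt segment 0.189% and 4.19%. The barcodes under 1% globin have a near but not equal composition at each stage. Their Hbb-bh1 segment is 12.4% and 2.84%. Their Hba-x segment is 27.4% and 18.8%, against 30.8% and 22.8% in globin-rich barcodes.

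Taken within its own family, Hba-x made 72.1% of the alpha-type UMIs at E9.5 (185228 of 256978) and 65.4% at E11.5 (341034 of 521738), a difference of -6.71 points (-6.93 to -6.50). Hbb-bh1 made 20.8% of the beta-type UMIs at E9.5 (71533 of 344633) and 4.98% at E11.5 (48354 of 971222), a difference of -15.8 points (-15.9 to -15.6). This was the largest of the 4 differences within families. Hbb-y made 77.8% and 86.8%, a difference of 8.95 points (8.80 to 9.11). Hbb-bs and Hbb-bt together made 1.40% and 8.22%, a difference of 6.83 points (6.76 to 6.89). Hbb-y and the adult pair thus took up the share that Hbb-bh1 lost, as parts of 1 family must.

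Levels, given as UMIs per 1000000 UMIs of the globin-rich barcodes (UPM), moved differently from shares, because globin took a larger part of the UMIs at E11.5. The Hba-x level was 98399 UPM at E9.5 against 134541 UPM at E11.5, so the zeta gene was higher although its share was lower. Hbb-y stood at 142526 and 332576 UPM, a ratio of 2.33. Hbb-bh1 was the only member with a lower level at E11.5, at 38001 and 19076 UPM, a ratio of 0.502. The adult alpha-type pair stood at 38116 and 71289 UPM. Hbb-bs had 1950 and 6796 UPM, and Hbb-bt 605 and 24707 UPM, a ratio of 40.9 (log2 5.35, Poisson-based interval 5.27 to 5.44).

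Per kilobase of transcript, the UPM levels at E9.5 ran in the order Hbb-y, Hba-x, Hbb-bh1, Hba-a1, Hba-a2, Hbb-bs and Hbb-bt, the same order as without the length. At E11.5 the order per kilobase was Hbb-y, Hba-x, Hba-a1, Hba-a2, Hbb-bt, Hbb-bh1 and Hbb-bs. On this scale Hbb-bh1 went from the third to the sixth place and Hbb-bt from the last to the fifth. A UMI counts a transcript once whatever its length, so the order without the length is the one to read. Hba-a2 and Hbb-bt are neighbours whose order rests on the length: without it their UPM intervals overlapped, at 24416 to 24802 and 24514 to 24902.

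Counted against the UMIs of all other genes in the same barcodes, as UMIs per 1000000 non-globin UMIs (non-globin UPM), the log2 ratio of E11.5 over E9.5 was 1.18 for Hba-x, 1.61 for Hba-a1 and 1.66 for Hba-a2. It was 1.95 for Hbb-y, 2.53 for Hbb-bs and 6.08 for Hbb-bt, which is 67.7-fold. For Hbb-bh1 it was -0.27 (-0.28 to -0.25), a much smaller difference than on the scale of all UMIs. The direction for each of the 7 genes was the same on both scales. A lower UPM of one gene cannot be told apart from a larger output of the others.

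The UMIs per barcode gave the same picture. Hbb-bh1 had a lowest, median and highest count of 14, 537 and 1532 UMIs per globin-rich barcode in the E9.5 library, and of 6, 292 and 1147 in the E11.5 library. For Hbb-y these were 29, 2143 and 6330, then 356, 6238 and 15499. For Hba-x they were 33, 1481.5 and 3263, then 82, 2349 and 6751. The ranges of these embryonic genes overlapped between the stages. Hbb-bt had 0, 5 and 66 UMIs in the earlier library and 8, 437 and 1454 in the later one, so that no E11.5 barcode lacked it. Hbb-bs had 0, 15 and 191, and 0, 68 and 793. Hba-a1 had medians of 363 and 795, and Hba-a2 of 185 and 433.

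Barcode by barcode, the Hbb-bh1 share of beta-type UMIs had a median of 21.6% at E9.5 and 4.39% at E11.5. All 122 E9.5 barcodes were above the E11.5 median, none of the 135 E11.5 barcodes was above the E9.5 median, and 108 of the 122 were above the highest E11.5 barcode, at 14.7%. The Hba-x share of alpha-type UMIs had medians of 72.8% and 66.3%, and here the ranges overlapped more. All but 7 of the 122 E9.5 barcodes were above the E11.5 median, but only 17 were above the highest E11.5 barcode, and 9 of 135 E11.5 barcodes were above the E9.5 median. The alpha-type share of all globin UMIs was above the E11.5 median in all 122 E9.5 barcodes. Of the shares compared here, Hbb-bt separated the stages most fully, with 131 of the 135 E11.5 barcodes above the highest E9.5 share of 1.80%.

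**Figure D2:**
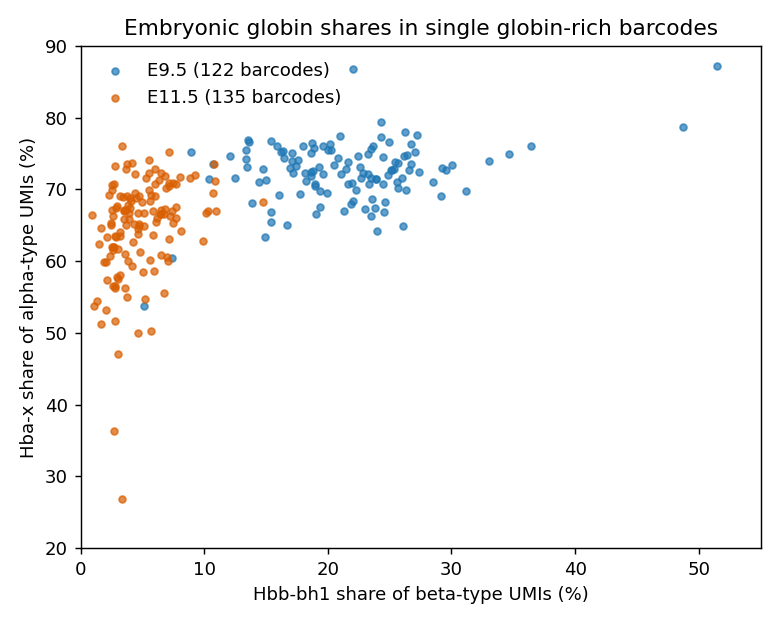
Each point is 1 globin-rich barcode, with the Hbb-bh1 share of its beta-type UMIs on the x axis and the Hba-x share of its alpha-type UMIs on the y axis (both percent), for the 122 E9.5 and 135 E11.5 barcodes. The stages part along the x axis, where the medians are 21.6% and 4.39%, and overlap along the y axis, where they are 72.8% and 66.3%.

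The embryonic order was kept in nearly every globin-rich barcode. Hbb-y had more UMIs than Hbb-bh1 in 120 of 122 E9.5 barcodes and in 135 of 135 of E11.5. Hba-x had more UMIs than Hba-a1 and Hba-a2 together in 122 of 122 and in 131 of 135. Adult beta-type UMIs outnumbered those of Hbb-bh1 in 0 of 122 and in 106 of 135 barcodes. In no globin-rich barcode of either stage did Hbb-bs and Hbb-bt outnumber the embryonic beta-type genes, and their highest joint share was 30.7%. All 7 genes had a UMI in 93 of 122 and 131 of 135 barcodes. Hba-x, Hba-a1, Hba-a2, Hbb-bh1 and Hbb-y had a UMI in every globin-rich barcode of both stages. Embryonic and adult transcripts thus occurred together in each of them. Hbb-bs lacked a UMI in 10 E9.5 and 4 E11.5 barcodes, and Hbb-bt in 24 and 0.

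Shares varied among barcodes of 1 stage by more than the counting of UMIs gives. For Hbb-bh1 of beta-type UMIs at E9.5 the SD between barcodes was 6.59 points, against 1.22 from counting alone. At E11.5 it was 2.43 against 0.319. For Hba-x of alpha-type UMIs the SD was 4.26 against 1.49 at E9.5 and 7.12 against 1.00 at E11.5. The split between Hba-a1 and Hba-a2 came closest to counting alone, with an SD of 4.17 against 3.40 at E9.5.

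Within E11.5, barcodes with a lower Hba-x share also had somewhat lower Hbb-bh1 and higher adult beta-type shares. The Spearman rank correlation of the Hba-x share of alpha-type UMIs was 0.39 with the Hbb-bh1 share of beta-type UMIs over 135 barcodes, and -0.34 with the adult beta-type share. At E9.5 these were 0.08 and 0.10 over 122 barcodes. The Hba-x share also ran against the globin content of the barcode, with -0.39 at E9.5 and -0.36 at E11.5. These are descriptions over barcodes that share 1 library, and the beta-type shares share a denominator. In the 22 E11.5 barcodes with at least 70% globin UMIs, Hba-x made 58.2% of alpha-type UMIs, Hbb-bh1 3.18% and the adult genes 11.4% of beta-type UMIs. In the 96 barcodes with 50% to under 70%, these were 67.0%, 5.51% and 7.38%.

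The adult beta-type genes did not move as a pair. Hbb-bt made 23.7% of their joint UMIs at E9.5 (1138 of 4808) and 78.4% at E11.5 (62628 of 79855), a difference of 54.8 points (53.5 to 55.97). Hbb-bs outnumbered Hbb-bt in 81 E9.5 barcodes and in 12 of E11.5. Hbb-bt outnumbered Hbb-bs in 34 and in 123. At E11.5 the Hbb-bs share of beta-type UMIs ranged from 0 to 24.6% with a median of 1.10%, and its SD between barcodes of 2.80 points stood against 0.194 from counting alone. Hbb-bt had a median of 6.35% and ranged from 1.32% to 13.4%. The Spearman correlation of both shares, which have the same denominator, was 0.16 over 122 barcodes at E9.5 and -0.03 over 135 at E11.5. At E11.5 a high share of either adult gene thus did not go with a high share of the other. At E9.5 the medians were only 15 Hbb-bs and 5 Hbb-bt UMIs per barcode, too few to tell.

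**Figure D3:**
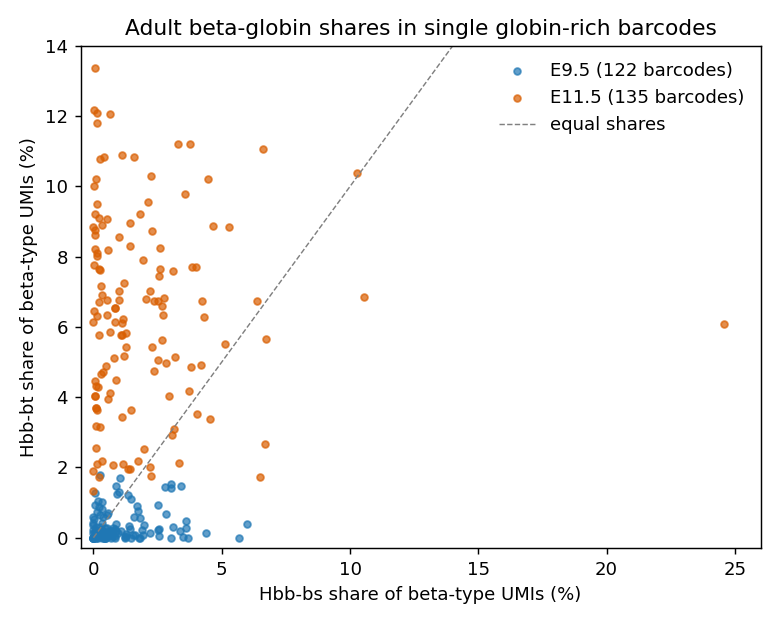
Each point is 1 globin-rich barcode, with its Hbb-bs share of beta-type UMIs on the x axis and its Hbb-bt share on the y axis (both percent), and the dashed line marks equal shares. Of the 135 E11.5 barcodes 123 lie above the line, and 81 of the 122 E9.5 barcodes lie below it.

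By contrast, the adult alpha-type pair held its split, with Hba-a1 at 66.2% of the joint UMIs at E9.5 against 65.5% at E11.5, a difference of -0.72 points (-1.13 to -0.31). Both pairs are close copies whose reads can be hard to assign. Of the windows of 90 bases in the Hba-a1 transcript, 58.9% occurred unchanged in Hba-a2, and 63.3% of those of Hbb-bs occurred in Hbb-bt. In the last 300 bases these were 57.3% and 24.6%, and no other pair of members shared any such window. The split within a pair is therefore uncertain. If reads that match both copies were left out, the total of each adult pair is too low as well. The Hba-x share of alpha-type UMIs, its lead over Hba-a1 and Hba-a2, and the alpha-type share carry this limit. So do the adult, Hbb-bh1 and Hbb-y shares of beta-type UMIs and the share of each member among globin UMIs. The counts of barcodes that set adult against embryonic UMIs carry it too. The sources used here did not state how such reads were counted, and the size of any loss was not tested.

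The E11.5 barcode with the lowest Hba-x share, picked after its values were seen, had 26.9% Hba-x of alpha-type UMIs. It also had the highest Hbb-bs share, 24.6% of beta-type UMIs, with 56.6% globin among 4090 UMIs and 630 genes. Among kept barcodes with at least 10 globin UMIs, 0 of 159 in the E9.5 library and 3 of 148 in the other had no UMI of Hba-x, Hbb-bh1 or Hbb-y. All 3, looked at after their values were seen, were below the 10% limit. The first had 79 Hba-a1, 3 Hba-a2 and 24 Hbb-bt UMIs among 1827 UMIs, with 3 erythroid markers and 1 megakaryocyte marker. The second had 12 Hba-a1 UMIs among 623 UMIs, and the third 10 Hbb-bt UMIs among 1997. Those latter barcodes had UMIs of 5 and 6 of the 6 megakaryocyte markers, the genes of the cells that shed platelets.

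The labels call both libraries somite cells, but the globin-rich barcodes carried the genes of red cells. Of the 11 erythroid markers listed, 10 were in the tables and all 10 had UMIs at both stages. At least 3 of them had a UMI in 117 of 122 E9.5 barcodes and in 135 of 135 of E11.5. The erythroid list summed to 3767 non-globin UPM in E9.5 barcodes and to 6992 in those of E11.5. The 10 lists of other cell types lay between 0.781 and 51.5 at E9.5 and between 1.92 and 230.4 at E11.5, where muscle was the highest. The megakaryocyte list had UMIs of 2 of 6 genes at E9.5 (27 UMIs) and of 3 of 6 at E11.5 (24 UMIs), with its platelet genes Pf4 and Ppbp at 0 in both. The white blood list had UMIs of 1 of 7 genes (1 UMI) and of 2 of 7 (5 UMIs), with Ptprc and Csf1r at 0 in both. At least 3 markers of another list were found in 8 of 122 barcodes and in 10 of 135. At E11.5 all 10 were among the 17 barcodes under 50% globin, whereas at E9.5 every globin-rich barcode was under 50%. The part of barcodes with markers of another list in the results was not tested. Without them the differences within families were -6.71 points for Hba-x, -15.8 for Hbb-bh1, 8.97 for Hbb-y and 6.83 for the adult beta-type pair.

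The globin content itself differed between the stages. Per barcode, the median was 33.1% at E9.5 and 63.6% at E11.5. No E9.5 barcode passed 48.6%, whereas 118 of the 135 E11.5 barcodes had 50% or more. To compare barcodes of like content, a range of 30% to under 50% was chosen after seeing the data, with 82 E9.5 barcodes and 9 of E11.5, of which 5 had 3 or more markers of another list. In it the stages differed by -17.0 points for Hbb-bh1, 8.85 for Hbb-y and 8.18 for the adult beta-type pair, and Hba-x was lower too. The barcodes just inside the limit had 11.0% and 11.7% globin in the E9.5 library, and 10.7% and 12.6% in the other. Those just outside had 9.59% and 9.28%, and 5.80% and 1.93%, so at E11.5 the limit fell in a gap.

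Outside the globin-rich barcodes, globin UMIs were few but widespread. In droplet data, RNA set free by broken cells can give UMIs in barcodes of cells that do not make it. The summed level in all other barcodes was 262.9 UPM at E9.5 (Poisson interval 260.2 to 265.6) and 75.4 UPM at E11.5 (73.9 to 76.9). At E9.5, however, 24 barcodes with 1% to under 10% globin held 89.2% of these UMIs, and 14 of the 24 were led by erythroid markers. At E11.5 only 3 barcodes lay in that range, with 4.50%. In barcodes under 1% globin the order was the opposite, 28.5 UPM at E9.5 (27.6 to 29.4) and 72.0 UPM at E11.5 (70.5 to 73.5). A summed level of this kind does not tell a few barcodes with many UMIs from many with few.

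At least 1 globin UMI was found in 22.0% of the 9705 E9.5 barcodes under 1% globin and in 56.1% of the 9457 at E11.5. Their median depths were 12420 and 12434 UMIs. With every barcode brought down at random to 5000 UMIs, and 528 and 720 barcodes below that depth set aside, the shares were 9.28% and 29.5%. Hbb-y, the highest globin of both stages, was found in 11.4% and 39.8% of these barcodes, or 4.49% and 19.3% after thinning. Hba-x was found in 7.47% and 16.1%. Hbb-bh1 went the other way, with 3.23% (2.88 to 3.60) and 2.72% (2.40 to 3.07), although these intervals overlapped. Hbb-bt was found in 0.155% and 4.74%, and Hbb-bs in 0.216% and 1.42%.

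What these barcodes carried followed the globin-rich barcodes of their own stage. Under 1% globin, Hbb-bh1 was 21.6% of the beta-type UMIs at E9.5 (19.9 to 23.4) and 4.12% at E11.5 (3.64 to 4.64). Hbb-y was 76.0% and 86.0%, and the adult beta-type pair 2.37% and 9.87%. The match was not exact. Hba-x was 64.4% of alpha-type UMIs (62.1 to 66.7) against 72.1% in the globin-rich barcodes at E9.5, and 60.7% (58.9 to 62.5) against 65.4% at E11.5. At E9.5, 20 barcodes with 0.1% to under 1% globin held 1310 of the 3898 UMIs and had an Hba-x share of 48.4%. In the 9685 E9.5 barcodes under 0.1% the Hba-x share was 74.4%. In the 9341 E11.5 barcodes under 0.1% it was 60.7%, still below the globin-rich value. Other E11.5 shares under 1% globin differed as well. Alpha-type UMIs were 31.0% of globin UMIs (30.1 to 32.0) against 34.95% in globin-rich barcodes. The adult beta-type pair was 9.87% (9.14 to 10.6) against 8.22%, and Hbb-bh1 4.12% against 4.98%. The Hbb-y interval (85.1 to 86.9) held the globin-rich 86.8%.

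Each marker group of other cell types with values held globin UMIs, though not every barcode in it did. The summed level was higher at E11.5. Under 1% globin, the E9.5 groups ran from 14.6 UPM in barcodes with muscle markers (9.94 to 20.8) to 33.8 UPM in those with neural progenitor markers (31.9 to 35.9). The E11.5 groups ran from 48.2 UPM with neural crest and glia markers (42.3 to 54.7) to 93.2 UPM with white blood markers (76.4 to 112.6). In each of the 8 marker groups with values at both stages the E11.5 interval lay above the E9.5 one. The globin-rich barcodes stood at 319596 and 588986 UPM. Within a stage the summed levels were not all alike, since the intervals of muscle and neural progenitor markers at E9.5 did not overlap. Counted per barcode, the values lay closer. A globin UMI was found in 26.9% of the barcodes with muscle markers and 24.5% of those with neural progenitor markers. Their median depths were unlike, at 18935 and 12482.5 UMIs. Brought down to 5000 UMIs, Hbb-y was found in 4.44% (1.22 to 10.99) of 90 and 4.40% (3.55 to 5.37) of 2070 barcodes. The interval for muscle markers is too wide to tell whether the groups differ. At 5000 UMIs per barcode, Hbb-y was found in 2.47% to 9.77% of the barcodes of a group at E9.5 and in 15.1% to 23.1% at E11.5. How much of this was free RNA was not tested.

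**Figure D4:**
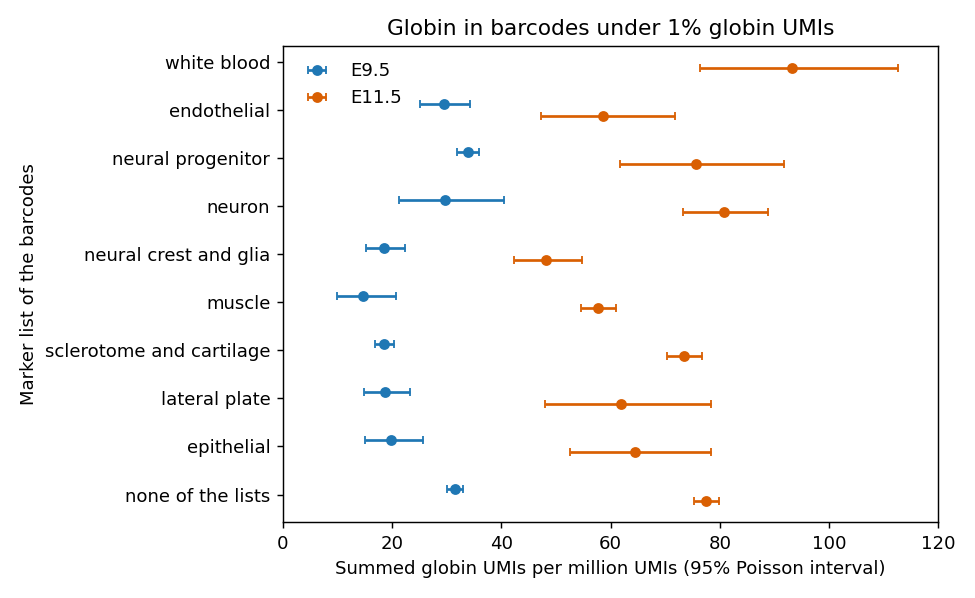
Summed globin level in UPM (x axis, with 95% Poisson intervals) in barcodes under 1% globin, grouped by the marker list they carry (y axis), at E9.5 and E11.5. The E9.5 groups lie between 14.6 and 33.8 UPM and the E11.5 groups between 48.2 and 93.2 UPM.

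Other genes of the red cell were compared between the stages in globin-rich barcodes in non-globin UPM, among genes with at least 100 UMIs over both stages. A gene was counted as past 2-fold by its ratio, with no test. Of all 2775 genes, 314 were at least 2-fold higher at E11.5 (11.3%) and 312 at least 2-fold lower (11.2%), with a median log2 ratio of -0.13. Of the 48 genes of the erythroid lists that had enough UMIs, 19 were at least 2-fold higher and 2 at least 2-fold lower. This split depends on the scale. On the scale of all UMIs, where the larger globin share at E11.5 lowers every other gene, 4 of 48 were higher and 4 lower. Of all 2782 genes with enough UMIs on that scale, 102 were higher and 1138 lower. The median of all genes was then -0.85.

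Of 12 genes of the red cell membrane, 8 were past 2-fold higher and 0 lower, with a list median of 1.24. This and the list counts below are in non-globin UPM, where 11.3% of all genes were higher and 11.2% lower. On the scale of all UMIs, only 4 of all 48 list genes were past 2-fold higher and 4 lower. Rhd, a subunit of the Rh complex, had 125.7 non-globin UPM at E9.5 against 961.8 at E11.5, a log2 ratio of 2.94 (2.69 to 3.18). Kel, the Kell blood group protease, had a log2 ratio of 1.92 (1.58 to 2.26). Slc4a1, the band 3 anion exchanger, had 367.7 and 1047, and Epb41, which ties the membrane to the skeleton beneath it, 96.8 and 278.4.

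Of 5 iron genes, 4 were past 2-fold higher and 1 lower in non-globin UPM, with a median of 1.37. The ferritin chains that store iron were among the most abundant: Fth1 had 10429 and 29420 non-globin UPM, and Ftl1 3773 and 10865. Slc25a37, the mitochondrial iron importer mitoferrin, had 960.3 and 2174. Tfrc, the transferrin receptor that brings iron into the cell, was the 1 below, with 546.5 and 259.2 and a log2 ratio of -1.08 (-1.28 to -0.87). Its interval holds 2-fold, and it is named here after its values were seen.

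Of 8 genes of the haem pathway, 1 was past 2-fold higher, a share near the 11.3% of all genes, and the list median was 0.41. That gene was Fech, which puts iron into the haem ring, with a log2 ratio of 1.16 (0.99 to 1.32) and likewise named after its values were seen. Alas2, the first and rate-limiting enzyme of haem synthesis in red cells, had 908.8 and 1692 non-globin UPM, a log2 ratio of 0.90 (0.79 to 1.00). Among 5 genes for protection from oxidation and protein folding, 2 were past 2-fold higher and 1 lower. Gpx1, a glutathione peroxidase, had 2739 and 7360. Of 3 erythropoietin signalling genes the 1 past 2-fold was Bcl2l1, the survival factor Bcl-xL, with 19.5 and 94.1. Of 5 genes of nuclear condensation and clearance, 3 were past 2-fold higher, with Ube2l6, a ubiquitin-conjugating enzyme, at 89.0 and 369.5.

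**Figure D5:**
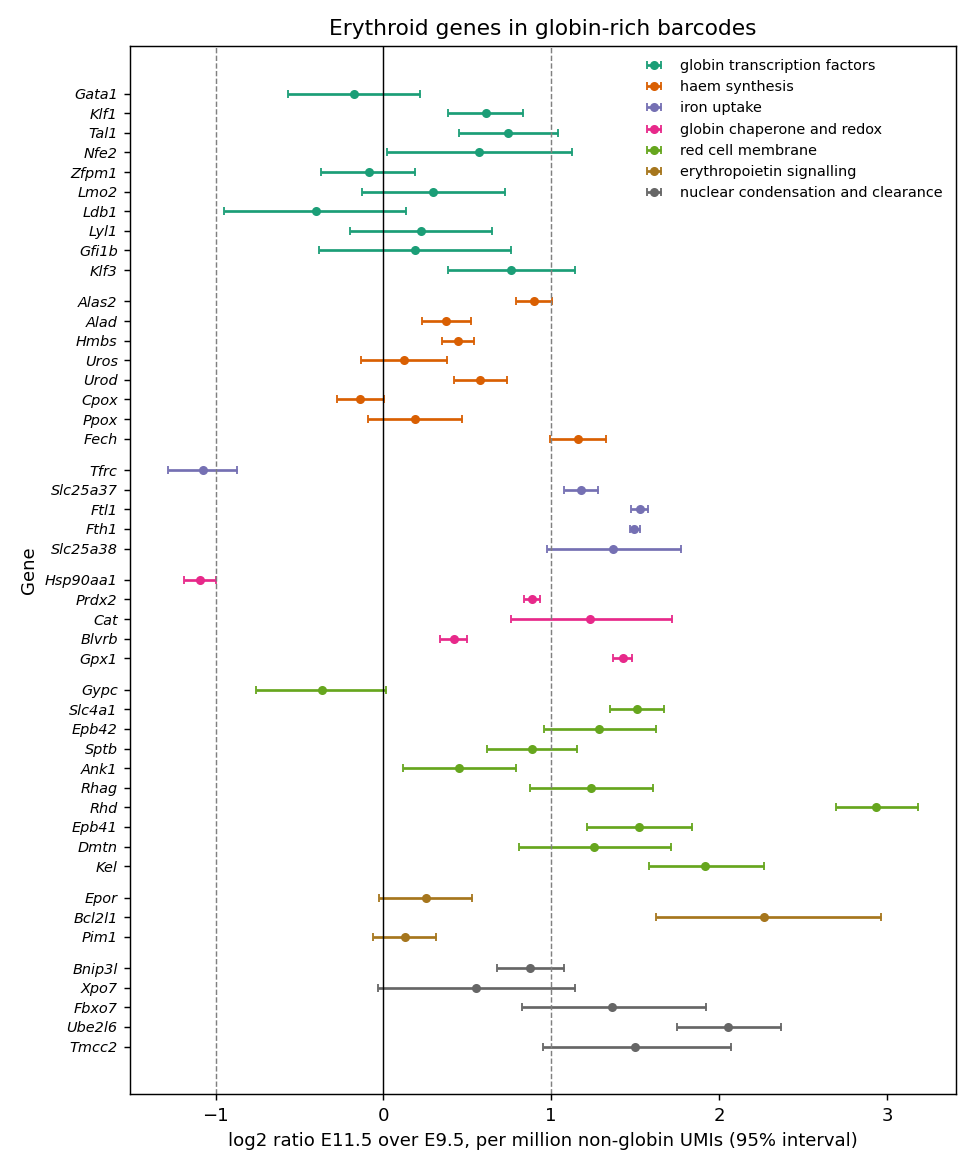
Log2 ratio of E11.5 over E9.5 in globin-rich barcodes in non-globin UPM (x axis, with 95% intervals for counting error) for 46 of the 48 erythroid list genes with enough UMIs (y axis), coloured by list, with dashed lines at 2-fold. Of these 46, beyond the right line lie 18 genes and beyond the left one 2, and Rhd lies farthest right at 2.94.

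Of the 10 transcription factors that act on globin genes, none was past 2-fold in either direction in non-globin UPM. Of all genes 11.3% and 11.2% were. The median log2 ratio of the 10 was 0.26. Their count on the scale of all UMIs is not given here. Gata1, the master factor of red cells, had 133 and 96 UMIs, a log2 ratio of -0.17 (-0.57 to 0.22). Klf1, which binds CACCC sites of globin promoters, had 303 and 376 UMIs and a log2 ratio of 0.61 (0.39 to 0.83). On the scale of all UMIs Klf1 stood at 161.0 and 148.3 UPM, so its direction depends on the scale. Tal1, a partner of Gata1, had a log2 ratio of 0.74 (0.45 to 1.04). Nfe2, which acts at the distant control region of the beta-type genes, had 0.57 (0.02 to 1.12), and Zfpm1, a cofactor of Gata1, -0.09 (-0.37 to 0.19).

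Factors known for the switch itself had few UMIs, and all 8 were under the 100 UMIs set for a ratio. Lin28b, an RNA-binding protein of early development, had 36 UMIs in 27 E9.5 barcodes and 1 UMI in those of E11.5, a log2 ratio of -4.87 with a wide interval of -10.21 to -2.30. Its relative Lin28a had 14 and 0 UMIs, 3.80-fold lower in non-globin UPM when 0 is taken as 3 UMIs per library. With the counting error of both stages, the interval of its log2 ratio ended at -1.43. Without the barcodes with markers of another list, 8 Lin28a UMIs in 6 E9.5 barcodes were left. The ratio was then 1.94-fold. Both were also lower outside the globin-rich barcodes, where Lin28b stood at 60.1 and 6.15 UPM and Lin28a at 51.7 and 0.503 UPM under 1% globin. Bcl11a, a repressor of embryonic beta-type globin genes, had 0 UMIs in E9.5 barcodes and 29 in 10 of E11.5. This was 11.9-fold higher with 0 again taken as 3 UMIs, and the interval of the log2 ratio began at 3.18. With the barcodes that had markers of another list left out, 7 Bcl11a UMIs in 5 barcodes remained and the ratio was 3.22-fold. In barcodes under 1% globin its level was 0.635 UPM at E9.5 against 94.7 UPM at E11.5. Zbtb7a, another repressor of such genes, had 29 and 58 UMIs. Sox6 had 2 and 7 UMIs, all in barcodes with markers of another list, and Myb 0 and 1.

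Of the other globin-family genes, Hbq1b, a theta-type gene of the alpha cluster, had 62 and 205 UMIs, a log2 ratio of 2.02 (1.61 to 2.46) in non-globin UPM. Hbq1a, a near copy of it, had 1 and 9 UMIs, and Hbb-bh2 had 3 and 5. Mb, Ngb and Cygb, the globins of muscle, nerve and other cells, had 0 UMIs in globin-rich barcodes at both stages, which allows up to 2.34 and 2.88 non-globin UPM.

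The genes whose level was most like that of the 7 globins summed were sought over 19 groups of barcodes, among 13487 genes. These were the globin-rich and marker groups of both stages with at least 20 barcodes. The barcodes with erythroid markers under 10% globin (14 at E9.5) and the megakaryocyte groups were too few and left out. By Pearson correlation of log2(UPM + 1) the first 10 included Trim10 (0.97), Slc4a1, Rhag, Alas2, Epb42, Klf1, Hemgn and Hbq1b (0.97). The groups come from 2 libraries, and globin stood at 14.6 to 173.8 UPM in all 17 groups other than the globin-rich ones. The globin-rich groups were set by the same globin UMIs. The ranking therefore lists genes largely confined to those groups and tests no likeness beyond that. Trim10, a tripartite motif protein, had 139.7 UPM at E9.5 and 187.0 at E11.5 in globin-rich barcodes and at most 0.342 UPM in any other of the 19 groups. Klf1 reached 2.20 UPM in another group, the highest of the 10, against 161.0 and 148.3 in globin-rich barcodes.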

How the data were processed

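Single-cell RNA-sequencing was done by the authors on a 10x Genomics Chromium chip, with 3 pooled embryos and 1 library for each of the stages E9.5 and E11.5. Reads were aligned with Cell Ranger 3.0.1 to mm10. The deposited values are raw UMI counts per gene and barcode, which the authors had not normalized. Strand and read length were not given in the sources used here. The barcodes deposited per library were close to the round number of cells in the labels.

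The 7 genes, the erythroid lists, the marker lists and all thresholds were chosen with earlier results of these data known. Barcodes were filtered as in the authors' methods, on genes and mitochondrial UMIs. UMIs were summed over the barcodes of a class. Exact 95% intervals were computed for shares (Clopper-Pearson), levels (Poisson) and ratios of 2 Poisson counts, and Newcombe intervals for differences. A count of 0 allows up to 3 counts. A barcode joined a marker group when it had UMIs of at least 3 genes of that list and of more genes than any other. No doublet caller was run: the limit of under 6500 genes stood in for one, and barcodes with 3 or more markers of another list were left out as an alternative. With 1 library per stage no test was made. Calculations were tested on simulated data. Python 3.11.15 with numpy 2.4.6, scipy 1.17.1, pandas 2.3.3 and matplotlib 3.10.9 was used.

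Named were the members, other globin-family genes, list genes whose interval lay past 2-fold or whose role bears on globin, and the 10 genes most like globin. Genes outside this rule are said to be so, and markers were named to describe barcodes. Alternatives were other limits of globin content, no filter or at least 1000 genes, the mean over barcodes, thinning, removal of mixed barcodes, subtraction of the level in other barcodes, the scale of all UMIs, and a minimum of 30 UMIs. Ahsp and Hbb-bh0 were not analysed here, and 2 genes of the lists are not reported by name. GENCODE M21 on GRCm38 and RefSeq on GRCm38.p6 gave positions and promoter windows, and 0 columns of other samples were present.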

Additional observations from a re-analysis of the deposited data

Results flagged for a closer look

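The barcodes that the filters removed were not part of the comparisons and held globin UMIs above the limit that a count of 0 allows. At E9.5 the 270 removed barcodes had 14154 globin UMIs, or 1455.3 UPM (Poisson interval 1431.5 to 1479.5), and none of them was globin-rich. Of these 143 had too many genes, and the highest globin content was 8.51%. At E11.5 the 572 removed barcodes had 6898 globin UMIs, or 999.5 UPM (976.0 to 1023.4), and 2 of them were globin-rich, with up to 28.0% globin. Of these 572, 446 were removed for mitochondrial UMIs. The source of these UMIs was not tested. With all deposited barcodes the differences within families were -6.71 points for Hba-x and -15.8 for Hbb-bh1.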

How the results depend on the processing

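No paired analysis was possible because each stage has 1 library, and none could be left out. The direction of the 4 differences within globin families was the same under every alternative run. From at least 50% globin no difference could be computed, since no E9.5 barcode was left. For Hba-x the difference was -6.145 points with at least 1000 genes, -7.807 as the mean over barcodes, -7.32 after thinning and -8.155 at 30% to under 50% globin, a range chosen after seeing the data. For Hbb-bh1 it was -16.65 as the mean over barcodes, -15.96 after thinning and -17.03 at 30% to under 50% globin, and for Hbb-y 9.723 as the mean over barcodes. For Hbb-bs and Hbb-bt together it was 6.637 with at least 1000 genes, 6.923 as the mean over barcodes, 6.997 after thinning and 8.182 at 30% to under 50% globin. The cause of these shifts was not tested.

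The globin level in other barcodes at E9.5, 262.9 UPM, was 28.46 UPM under 1% globin, 89.57 under 5%, 341.5 with all deposited barcodes and 141.1 after thinning. At E11.5, 75.36 UPM became 71.98 under 1%, 88.11 with all deposited barcodes and 77.68 after thinning. Erythroid genes past 2-fold were 19 higher and 2 lower of 48. On the scale of all UMIs, where the globin UMIs enter the denominator, they became 4 higher and 4 lower of 48. Of all 2782 genes on that scale, 102 were higher and 1138 lower. Without mixed barcodes they were 21 higher and 1 lower of 47, against 274 and 336 of all 2313 genes. The Hba-a1 share of the adult alpha-type pair reversed at 30% to under 50% globin, to 0.1707 points. Of 237 alternative values for shares and single genes, 168 were within the counting error, 68 moved and 1 reversed. With 1 library per stage, no depth can show the spread between embryos.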
